A study of Mus musculus with 9 samples.

Results

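The genes described here are 30 genes of cholesterol and fatty acid synthesis, taken by symbol from a list that covers the mevalonate pathway (7 genes), the steps from squalene to cholesterol (11 genes), the SREBP regulators with a sterol carrier (5 genes) and fatty acid synthesis (7 genes). All 30 were found among the 47729 genes of the count table, and all 30 had enough counts to be tested. Their transcripts were counted in C2C12, an established mouse myoblast line whose cells fuse into multinucleate myotubes when growth serum is replaced by horse serum. The study compared 3 populations, here called WT, Per1KO and Per2KO as in the sample titles: WT was treated with a guide RNA that has no target, and the other populations carried CRISPR-Cas9 knockouts of the circadian clock genes Per1 or Per2. Each population was sampled before differentiation (day 0, in 10% fetal bovine serum) and on days 3 and 5 of differentiation (in 5% horse serum), with 1 library per population and day and 9 libraries in all. The labels do not say whether a knockout population is a clone or a pool, nor at which clock time cells were collected. The labels also give whole muscle as the tissue, whereas the growth protocol describes cultured C2C12 cells.

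Cells make cholesterol from acetyl-CoA through mevalonate and farnesyl diphosphate to squalene, and then convert the ring product lanosterol to cholesterol. Fatty acids start from the same acetyl-CoA, which is carboxylated, polymerised, elongated and desaturated. Most of these enzymes are under the control of the SREBP transcription factors, which stay in the endoplasmic reticulum with the escort protein Scap and the anchor Insig1 while sterol is plentiful, and are cleaved and move to the nucleus when sterol falls. Myoblast fusion remodels membranes, and cultured cells can take cholesterol from serum lipoproteins or make it themselves.

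The WT libraries held 5020385 to 6773320 counts and the knockout libraries 41997763 to 48051824, and only the WT titles carry a lane suffix. Genotype, depth and lane therefore cannot be told apart, and neither can day and culture medium. At this depth the half-width of a member's 95% counting interval (exact Clopper-Pearson) was at most 34.2% of its level in WT (36 counts, Tm7sf2, day 0) and at most 15.2% in a knockout library (173 counts, Idi1, Per2KO day 0), with medians of 9.89% and 3.33%. These intervals cover counting error only. Levels are depth-scaled counts, given as CPM after TMM scaling, edgeR's correction for library composition. Differences between populations or days are log2 fold changes with their standard error (SE) from edgeR's quasi-likelihood test over the 9 libraries. No population and day was repeated, so the spread of a gene came from how its 9 levels departed from a sum of genotype and day effects. The same estimate served each comparison of populations or of days, apart from the interaction model described below. A gene was called at a Benjamini-Hochberg adjusted p-value under 0.05. The p-values speak of the spread between these libraries, not of independently made cultures. The targeted genes were still counted in the knockouts: Per1 stood at 35.6, 33.8 and 31.01 CPM on days 0, 3 and 5 in WT and at 20.9, 32.4 and 29.0 CPM in Per1KO (log2 -0.34, adjusted p = 0.31), and Per2 at 9.75, 11.5 and 20.5 CPM in WT and at 3.50, 9.13 and 8.38 CPM in Per2KO (log2 -1.02, adjusted p = 0.023). Each transcript was also lower in the other knockout, Per1 by -0.40 in Per2KO and Per2 by -0.62 in Per1KO, neither called. The edited positions are not given in the sources used here, and an edit need not lower the transcript.

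Markers of the labelled cell type were present in every library. On days 0, 3 and 5, the summed level of 5 myoblast genes was 4938, 8231 and 6962 CPM in WT. It was 3281, 6084 and 8378 CPM in Per1KO and 2854, 5996 and 8094 CPM in Per2KO. This sum was lowest on day 0 and does not mark undifferentiated cells alone. The summed level of 5 myotube genes went from 581 CPM on day 0 to 16720 CPM on day 5 in WT. It went from 27.8 to 10220 CPM in Per1KO and from 13.1 to 7900 CPM in Per2KO, so the knockout populations were lower on each day. Of 7 adipocyte genes, Adipoq, Cidec and Lep had no count in any library, and nearly all of the summed 5.47 to 26.9 CPM came from Pparg. Leukocyte genes summed to at most 2.2 CPM and endothelial genes to at most 0.433 CPM. Of 5 fibroblast genes, Thy1 had no count in any library, whereas the sum, mostly Col1a1 and Dcn, was 719 to 4305 CPM in WT, 77.9 to 952 CPM in Per1KO and 94.96 to 1128 CPM in Per2KO.

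The sterol synthesis genes rose on day 3. Between day 0 and day 3, 17 of the 18 enzymes of both sterol lists were called higher and none lower, by 0.49 (Sqle) to 2.03 (Idi1) on the log2 scale, and their median change was 1.17. Over all 30 genes, 21 were called higher and 1 lower, with a median of 0.90. Of the 13324 genes tested, 18.1% were called higher and 16.9% lower in this comparison, with a median of -0.01. The member count was 10 higher and 1 lower without the Per2KO libraries, 8 higher without the Per1KO libraries and 23 higher without the WT libraries. Calls over all tested genes moved as well, from 2418 higher and 2246 lower with all 9 libraries. They were 853 and 587 without Per2KO, 736 and 411 without Per1KO, and 3882 and 3802 without WT.

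The mevalonate pathway runs from acetoacetyl-CoA to farnesyl diphosphate, and 6 of its 7 genes were called higher on day 3. Idi1, which isomerises isopentenyl diphosphate, stood at 6.78, 19.7 and 8.58 CPM on days 0, 3 and 5 in WT, at 8.82, 28.7 and 18.0 CPM in Per1KO and at 3.41, 24.8 and 16.8 CPM in Per2KO. Day 3 was the highest day in each population, and the 3 levels of day 3 did not overlap those of day 0 (log2 2.03, SE 0.32, adjusted p = 0.00283). Because 22.2% of the 31-base words of the Idi1 transcript also occur in other genes, among them the processed pseudogene Gm13502, its level is uncertain. The change was 1.73 when the counts of near-identical copies were added, which cannot restore reads that the counting may have left out.

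Hmgcs1, the synthase that makes HMG-CoA, stood at 260, 406 and 235 CPM in WT, at 206, 548 and 336 CPM in Per1KO and at 102, 540 and 346 CPM in Per2KO (days 0, 3 and 5). The 3 day 3 levels again lay above the 3 day 0 levels (log2 1.42, SE 0.34, adjusted p = 0.0159). The call was lost without either knockout population. Mvd, the decarboxylase that closes the mevalonate part of the pathway, rose by 1.22 (SE 0.21). Mvk, the first kinase of the pathway, rose by 0.56 (SE 0.17). Acat2, a cytosolic thiolase, rose by 0.73 (SE 0.24, adjusted p = 0.0493) and shares 50.5% of its 31-base words with other genes, chiefly Acat3. Pmvk, the second kinase, was the exception, with a change of -0.02 (SE 0.11).

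All 11 genes from squalene to cholesterol were called higher on day 3. Nsdhl, a sterol dehydrogenase that removes a carbon from the lanosterol skeleton, stood at 62.3, 138 and 79.4 CPM in WT, at 83.0, 176 and 111 CPM in Per1KO and at 53.8, 176 and 121 CPM in Per2KO on days 0, 3 and 5. The 3 populations had the same order of days, with day 3 highest and day 0 lowest (log2 1.30, SE 0.17, adjusted p = 0.00119), and the call held when any 1 population was left out. The same order held for Cyp51, the lanosterol demethylase (1.05, SE 0.16), for Msmo1, the methylsterol oxidase (0.96, SE 0.12), for Tm7sf2, a sterol reductase (1.25, SE 0.17), and for Sc5d, a sterol desaturase (0.81, SE 0.14). Hsd17b7, the keto reductase that works with Nsdhl, rose by 1.34 (SE 0.30). Fdft1, which makes squalene, rose by 1.13 (SE 0.22), with 16.5% of its 31-base words shared and an exon overlap with Ctsb on the other strand.

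Lss, which closes the ring to lanosterol, was called higher (0.98, SE 0.30, adjusted p = 0.039) with levels that were not alike in the 3 populations. Its level was 53.7, 52.0 and 41.8 CPM in WT, 46.7, 114 and 60.6 CPM in Per1KO and 32.6, 105 and 65.5 CPM in Per2KO. The WT levels of days 0 and 3 differed by less than their counting intervals, whereas both knockout levels were more than 2-fold above their day 0. Ebp and Dhcr7, the sterol isomerase and the reductase of the last step, rose by 1.24 (SE 0.16) and 1.26 (SE 0.18).

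**Figure D1:**
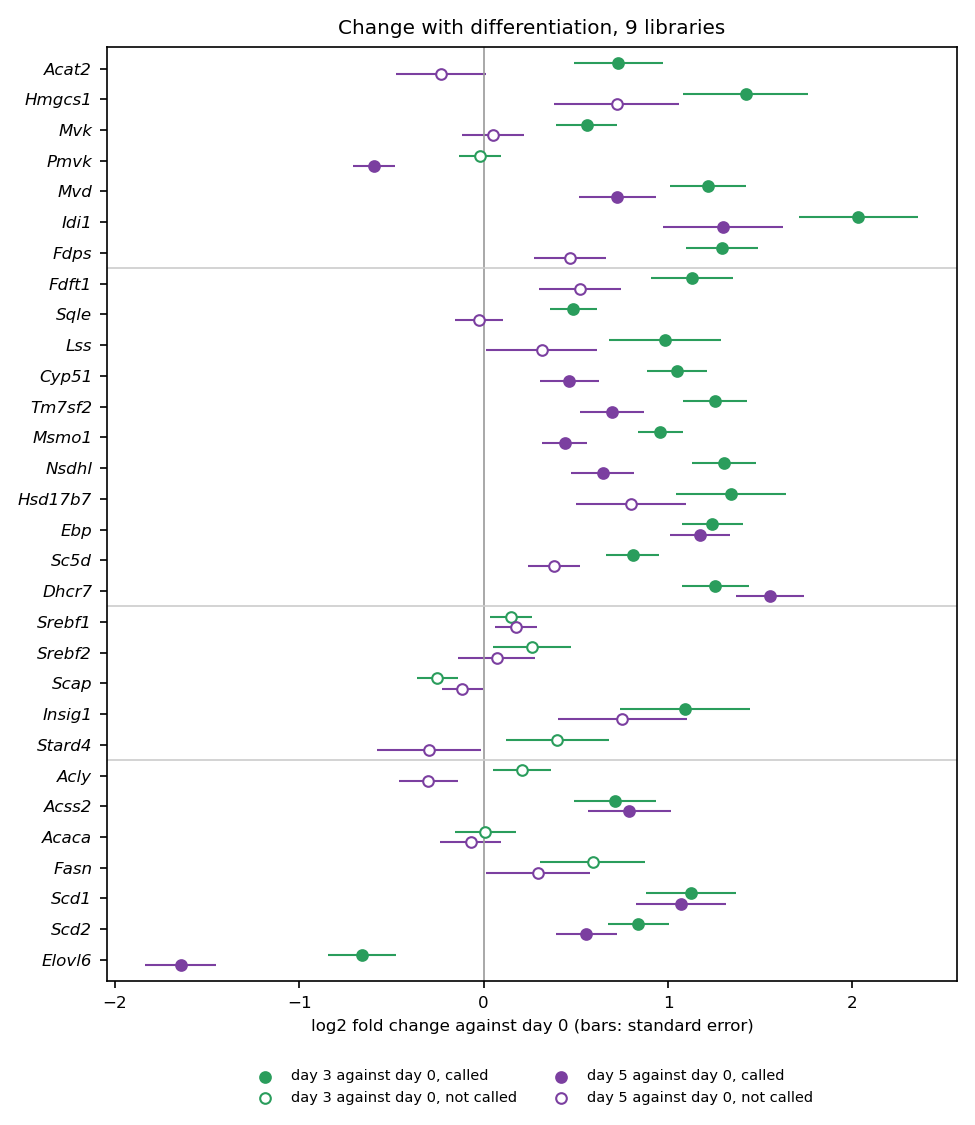
Log2 fold change of each of the 30 genes on day 3 (green) and day 5 (purple) against day 0, with bars for the standard error, from all 9 libraries; filled circles were called and the grey lines separate the 4 gene lists. The green circles of both sterol lists are filled except that of Pmvk, and the purple circles lie to their left except for Dhcr7.

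On day 5, 15 of the 18 sterol enzymes in Per2KO and 13 in Per1KO lay between their day 0 and day 3 levels, but 9 in WT, where 8 lay below day 0 and Dhcr7 lay above day 3. Against day 0, 11 of the 30 genes were called higher and 2 lower on day 5, where 23.2% and 22.9% of all tested genes were called higher and lower. The members higher on day 5 were Mvd, Idi1, Cyp51, Tm7sf2, Msmo1, Nsdhl, Ebp, Dhcr7, Acss2, Scd1 and Scd2, and those lower were Pmvk (-0.59, SE 0.12) and Elovl6 (-1.64, SE 0.19). This count was 2 higher and 1 lower without Per1KO, 2 higher and 2 lower without Per2KO, and 19 higher and 2 lower without WT. Calls over all tested genes also depended on the populations, with 3093 higher and 3056 lower in all 9 libraries. They were 1265 and 1083 without Per1KO, 1574 and 1419 without Per2KO, and 4286 and 4300 without WT. Between days 3 and 5 only Elovl6 was called (-0.98, SE 0.19, adjusted p = 0.0496), where 1.09% of tested genes were called lower. All 7 mevalonate genes and 10 of the 11 later genes had a negative change between these days, with medians of -0.70 and -0.54 against a median of 0.00 over all tested genes. DESeq2's Wald test called 8 members lower in that comparison, where it called 389 of the 13324 tested genes lower and 339 higher.

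Dhcr7 departed from the other sterol enzymes by being highest on day 5 in every population. It stood at 38.6, 79.5 and 128 CPM in WT, at 36.1, 71.9 and 80.8 CPM in Per1KO and at 19.5, 64.5 and 67.9 CPM in Per2KO (day 5 against day 0, log2 1.55, SE 0.18, adjusted p = 0.000397). Ebp was highest on day 3 in WT (107 CPM) and on day 5 in both knockouts (110 and 89.5 CPM). Counted over the 3 populations, 15 of the 30 members, among them 14 of the 18 sterol enzymes, had their highest level on day 3 in all 3, which was so for 3.47% of tested genes. The member outside the sterol lists was Scd2.

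**Figure D2:**
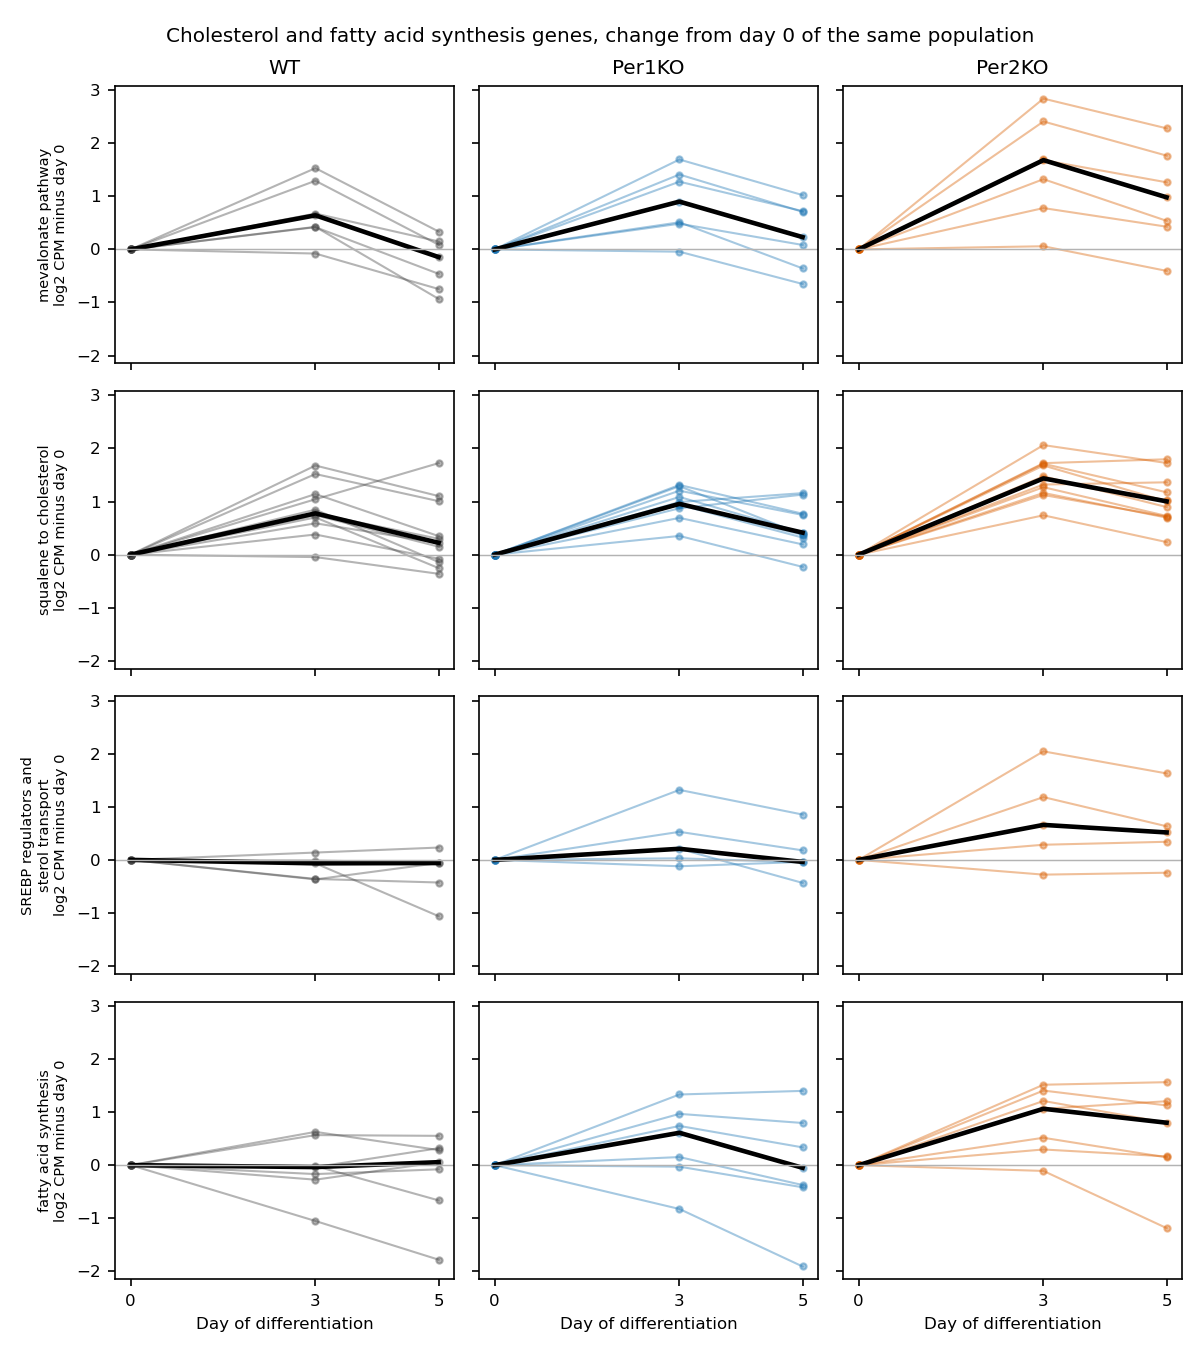
Change of each gene from day 0 of its own population (y axis, log2 CPM minus day 0) over the days of differentiation (x axis), with 1 panel per gene list and population; thin lines are genes and the thick black line is the list's median. The sterol lists rise to day 3 and come down by day 5 in all 3 populations, with day 3 medians of 0.64 and 0.78 in WT, 0.90 and 0.96 in Per1KO and 1.68 and 1.44 in Per2KO.

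The starts of 24 of the 30 members are in the RefSeq promoter table (build GRCm38.p6), as 30 windows of 300 bases with 250 bases before and 50 after the start. The windows were searched on both strands, each motif by itself so that matches may overlap, for a sterol response element spelled TCACNCCAC, for the CCAAT box bound by NF-Y, and for the E-box CACGTG, the letters that clock and SREBP factors are known to bind. CCAAT was found in 20 of the 24 members and in 70% of their windows, against 38.2% of 21262 windows of protein-coding genes. CACGTG was found in 5 members (Dhcr7, Hsd17b7, Insig1, Sc5d and Scap) and in 20% of their windows, against 7.84%. TCACNCCAC was found in Hmgcs1 alone, which is 3.33% of the windows against 1.19%. Windows of 1 gene can overlap, and a match is a description of the letters, not a bound site.

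Windows of 4 members are shown because they belong to members whose levels the results turn on: Hmgcs1 (chr13:119690101-119690400, + strand), Idi1 (chr13:8885356-8885655, + strand), Insig1 (chr5:28071162-28071461, + strand) and, of the 3 starts listed for Srebf1, the window with the motif nearest the start (chr11:60210422-60210721, - strand). The windows other than that of Srebf1 were chosen after the values were seen. Capitals mark the motif matches, with CCAAT also in its reversed form ATTGG, and the transcript starts 50 bases before the end.
Hmgcs1: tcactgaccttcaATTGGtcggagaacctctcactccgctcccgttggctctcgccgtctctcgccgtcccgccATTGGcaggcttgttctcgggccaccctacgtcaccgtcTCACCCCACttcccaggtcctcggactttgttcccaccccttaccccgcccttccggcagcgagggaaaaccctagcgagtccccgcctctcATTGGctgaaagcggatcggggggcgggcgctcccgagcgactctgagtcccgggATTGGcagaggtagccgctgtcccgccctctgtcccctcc
Idi1: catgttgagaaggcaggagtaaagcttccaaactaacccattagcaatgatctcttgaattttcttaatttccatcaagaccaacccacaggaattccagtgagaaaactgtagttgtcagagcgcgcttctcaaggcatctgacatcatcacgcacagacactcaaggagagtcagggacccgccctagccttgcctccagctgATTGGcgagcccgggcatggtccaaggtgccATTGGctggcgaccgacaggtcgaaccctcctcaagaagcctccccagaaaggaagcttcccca
Insig1: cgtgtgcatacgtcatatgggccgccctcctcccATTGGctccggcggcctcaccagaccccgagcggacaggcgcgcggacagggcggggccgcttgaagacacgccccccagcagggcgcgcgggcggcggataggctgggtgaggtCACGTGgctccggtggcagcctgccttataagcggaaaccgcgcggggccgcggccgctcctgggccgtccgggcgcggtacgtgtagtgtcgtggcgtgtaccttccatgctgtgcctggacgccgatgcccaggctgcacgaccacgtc
Srebf1: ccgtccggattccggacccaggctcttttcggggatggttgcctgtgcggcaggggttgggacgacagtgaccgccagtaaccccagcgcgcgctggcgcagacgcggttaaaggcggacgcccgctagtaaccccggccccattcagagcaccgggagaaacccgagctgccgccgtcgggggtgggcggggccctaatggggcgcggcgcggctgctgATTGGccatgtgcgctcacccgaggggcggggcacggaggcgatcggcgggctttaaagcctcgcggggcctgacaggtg
Hmgcs1 holds the sterol response element at -137 bases from the start and the box in its ATTGG form in 4 places, and Idi1 holds that form in 2 places. Insig1 holds the E-box at -101, and this Srebf1 window holds 1 box at -30.

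Among the 5 regulators and sterol carriers, Srebf1 was the one called against WT, in both knockouts. Srebf1 (chr11:60199089-60222581, - strand, GRCm38) encodes the SREBP form known mainly for fatty acid synthesis. It stood at 168, 185 and 198 CPM in WT, at 111, 113 and 107 CPM in Per1KO and at 89.6, 109 and 114 CPM in Per2KO on days 0, 3 and 5. All 6 knockout levels lay below all 3 WT levels, and the counting intervals of knockout and WT overlapped on no day. The difference from WT was -0.73 in Per1KO (SE 0.11, adjusted p = 0.00411) and -0.82 in Per2KO (SE 0.11, adjusted p = 0.0023), lower on 3 of 3 days in each. In Per1KO the call was lost without day 3 (-0.74) or without day 5 (-0.65), while in Per2KO it held without any day. With differentiation Srebf1 changed by 0.15 (SE 0.11) on day 3 and 0.18 (SE 0.11) on day 5, neither called.

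Srebf2, the SREBP form known mainly for sterol synthesis, stood at 631, 492 and 470 CPM in WT, highest on day 0. Its level was 398, 574 and 451 CPM in Per1KO and 344, 544 and 493 CPM in Per2KO, highest on day 3 in both knockouts. No comparison of Srebf2 was called, with differences from WT of -0.19 (SE 0.21) in Per1KO and -0.23 (SE 0.21) in Per2KO. Scap, the escort protein, kept within 53.1 to 68.5 CPM over the 9 libraries and was not called in any comparison.

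Insig1 (chr5:28071363-28078662, + strand), the sterol-dependent anchor and itself an SREBP target, stood at 97.9, 97.1 and 94.3 CPM in WT, at 81.2, 203 and 147 CPM in Per1KO and at 46.2, 191 and 143 CPM in Per2KO. The WT levels lay within their counting intervals of each other, while both knockouts were below WT on day 0 and above it on days 3 and 5. Its rise on day 3 over all populations was called (1.09, SE 0.35, adjusted p = 0.047), but not without either knockout population (0.95 and 0.65), nor without the Per2KO day 0 library alone (0.68). Stard4, a carrier that moves sterol between membranes, stood at 94.1, 89.9 and 45.1 CPM in WT, at 113, 131 and 83.9 CPM in Per1KO and at 59.7, 136 and 92.7 CPM in Per2KO, and was not called.

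**Figure D3:**
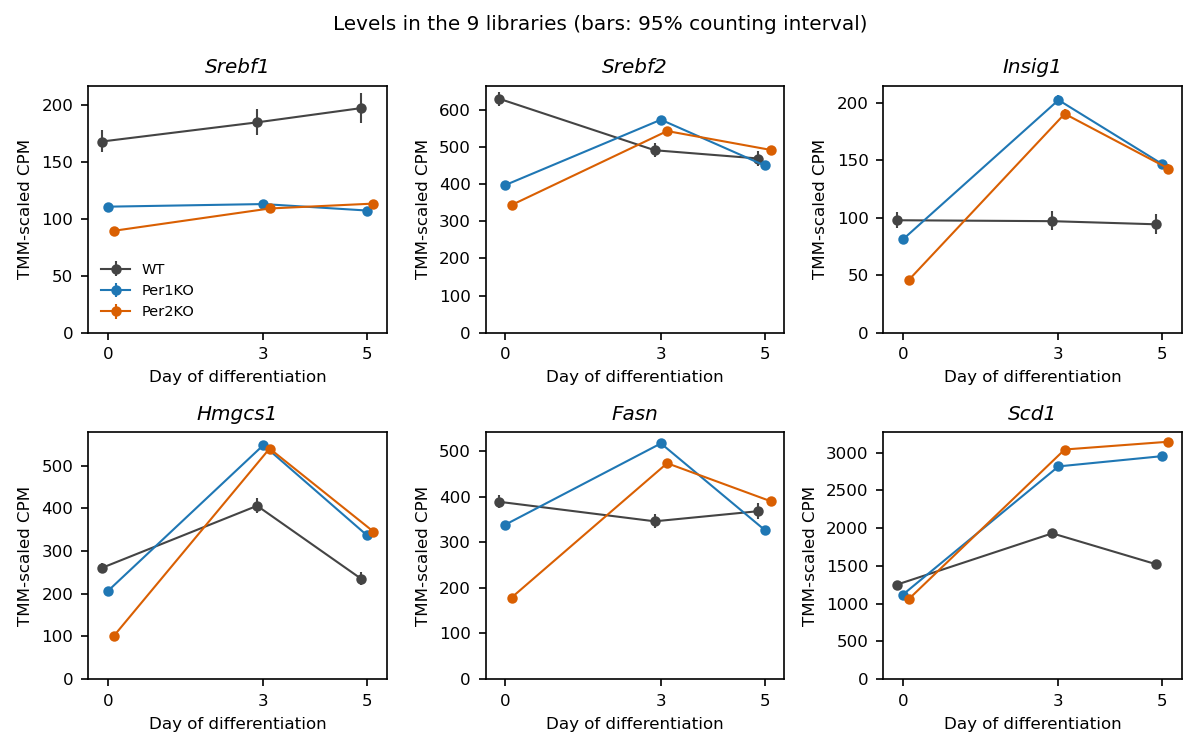
TMM-scaled CPM (y axis, from 0) of 6 members in the 9 libraries by day of differentiation (x axis), with WT in grey, Per1KO in blue and Per2KO in orange and bars for the 95% counting interval. Srebf1 is lower in both knockouts on every day, and Insig1 is level in WT but changes from 81.2 to 203 CPM in Per1KO and from 46.2 to 191 CPM in Per2KO between days 0 and 3.

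The fatty acid genes were called in both directions over the 3 populations together. Between the day 0 and day 3 libraries, 2 of the 7 rose in WT (median log2 -0.04), 5 in Per1KO (0.61) and 6 in Per2KO (1.06). Of all tested genes, 49.8%, 50.1% and 49.7% rose. Of 7 genes, Acss2, Scd1 and Scd2 were called higher on day 3, Elovl6 was called lower, and Acly, Acaca and Fasn were not called. Scd1, a desaturase that makes monounsaturated fatty acids, stood at 1251, 1932 and 1523 CPM in WT, at 1120, 2819 and 2955 CPM in Per1KO and at 1065, 3043 and 3146 CPM in Per2KO. Day 0 was the lowest day in each population (day 3 against day 0, 1.13, SE 0.24, adjusted p = 0.0103), although the call was lost without either knockout. Scd2, the closely related desaturase, rose by 0.84 (SE 0.17). Acss2, which makes acetyl-CoA from acetate, rose by 0.71 on day 3 (SE 0.22, adjusted p = 0.0409) and by 0.79 on day 5 (SE 0.22), and it overlaps antisense exons. In WT its level was 14.97 CPM on day 0 and 14.6 CPM on day 3, and in the knockouts it went from 9.80 to 19.2 CPM and from 7.44 to 15.6 CPM.

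Elovl6, the elongase of palmitate, fell through differentiation. Its level was 79.5, 38.3 and 23.1 CPM in WT, 91.5, 51.6 and 24.3 CPM in Per1KO and 57.6, 53.4 and 25.3 CPM in Per2KO. Day 5 was the lowest day in each population, and the day 5 levels did not overlap those of day 0 (-1.64, SE 0.19, adjusted p = 0.000371). Fasn, the fatty acid synthase, stood at 389, 346 and 368 CPM in WT, at 338, 516 and 327 CPM in Per1KO and at 179, 473 and 390 CPM in Per2KO, and its day 3 change of 0.59 (SE 0.28) was not called. Acaca, the carboxylase that feeds it, ranged from 33.4 to 47.7 CPM over the 9 libraries with no call. Acly, which cleaves citrate to acetyl-CoA, ranged from 169 to 357 CPM with no call.

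Over the 3 days, 3 of the 30 members were called against WT in each knockout. Of the 13324 tested genes, 2575 were called in Per1KO and 2652 in Per2KO. In Per1KO, Fdps and Sc5d were called higher and Srebf1 lower, where 9.26% of all tested genes were called higher and 10.1% lower. In Per2KO, Fdps was called higher and Dhcr7 and Srebf1 lower, where 9.31% were called higher and 10.6% lower. The medians over the 30 members were 0.20 and -0.03, against -0.02 and -0.01 over all tested genes. The comparisons share the WT libraries. The summed levels of the myotube genes, markers of the labelled cell type, and of the fibroblast genes also differed between WT and the knockouts, as given above. Whether this had a part in the differences of the members was not tested.

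Fdps (chr3:89093588-89101959, - strand), which makes farnesyl diphosphate, stood at 11.6, 28.5 and 12.3 CPM in WT, at 37.7, 70.5 and 44.3 CPM in Per1KO and at 22.3, 72.6 and 44.1 CPM in Per2KO. Each knockout level exceeded the WT level of its day (1.61, SE 0.20, adjusted p = 0.00152 in Per1KO and 1.38, SE 0.20, adjusted p = 0.00299 in Per2KO). Its level is uncertain, because 89.2% of its 31-base words occur in other genes and the processed pseudogene Gm3571 took counts of its own. With the copies added the differences were 1.68 and 1.47. How reads that fit several genes were counted is not given, so these sums cannot settle the level of Fdps. In Per2KO the call was lost without day 3 (1.40) or without day 5 (1.16).

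Sc5d stood at 23.7, 35.8 and 27.7 CPM in WT and at 33.1, 53.5 and 37.8 CPM in Per1KO, above WT on 3 of 3 days (0.50, SE 0.15, adjusted p = 0.0471). In Per2KO it stood at 22.4, 48.9 and 36.8 CPM and was not called (0.27, SE 0.15). The call in Per1KO was lost without day 3 (0.46), without day 5 (0.53), in the 6 libraries compared and with a filter of 10 CPM. Dhcr7 was lower than WT on 3 of 3 days in Per2KO (-0.73, SE 0.18, adjusted p = 0.0278), a call that was lost without any single day (-0.95 to -0.62) and without the Per2KO day 0 library (-0.56). In Per1KO the difference of Dhcr7 was -0.30 (SE 0.18).

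**Figure D4:**
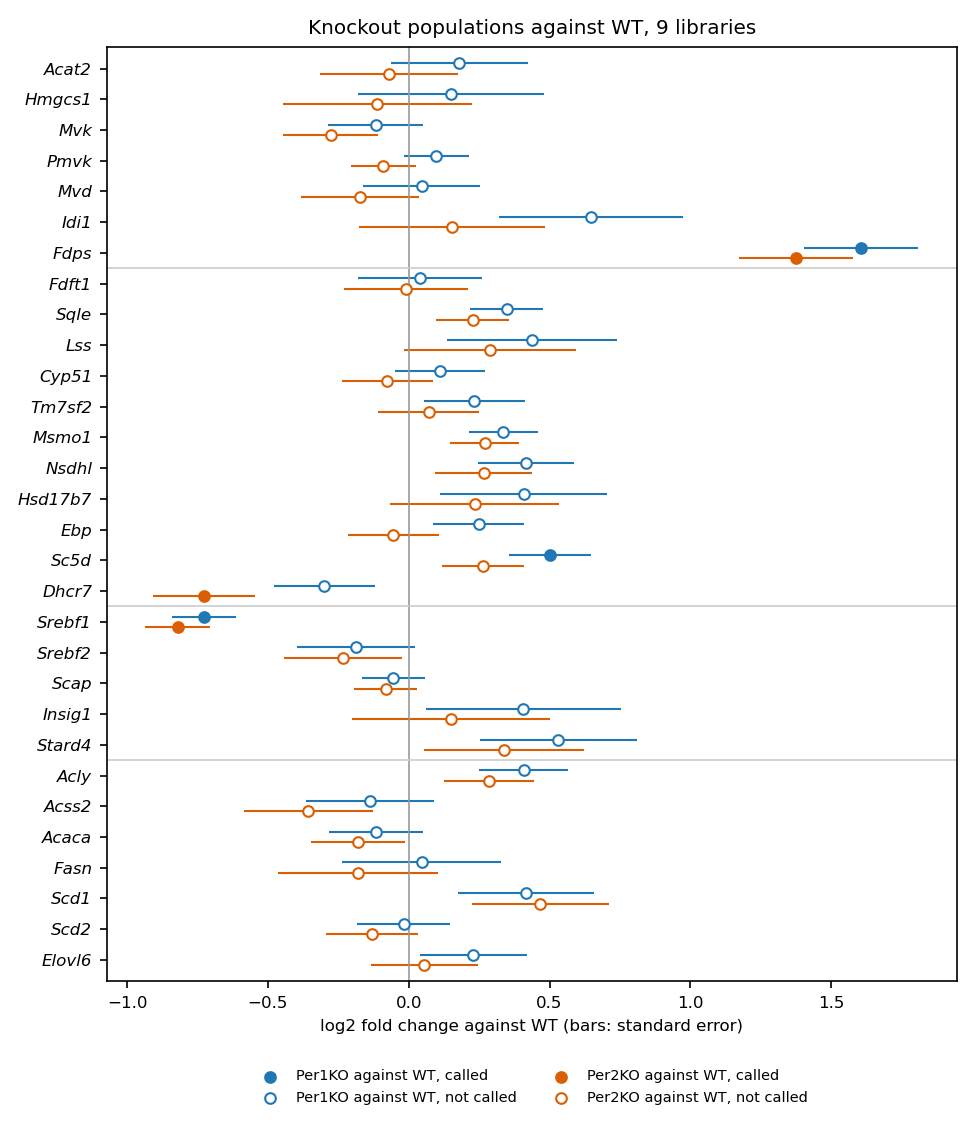
Log2 fold change against WT of each of the 30 genes in Per1KO (blue) and Per2KO (orange), with bars for the standard error, from all 9 libraries; filled circles were called. Srebf1 lies to the left and Fdps to the right in both populations, and for most other genes the bar reaches or nears 0.

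Day 0 differed from the later days in this comparison. Without the day 0 libraries, 9 members were called higher and 1 lower in each knockout, where 9.85% of tested genes were called higher in Per1KO and 10.9% in Per2KO, and 11.3% and 12.7% were called lower. The members higher in both were Hmgcs1, Fdps, Lss, Insig1, Stard4, Acly and Scd1. Besides these, Idi1 and Sc5d were called in Per1KO, Nsdhl and Hsd17b7 in Per2KO, and Srebf1 was the member lower in both. In single library pairs, which have no replicate check, 27 of 30 members were lower in Per2KO than in WT on day 0, with a median of -0.62, and on days 3 and 5 the medians were 0.27 and 0.29. The medians of Per1KO against WT were -0.02, 0.37 and 0.28 on days 0, 3 and 5, and over all genes compared the median of each of these 6 pairs lay between -0.03 and 0.00.

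At 2-fold, 4 members were lower in Per2KO than in WT on day 0, namely Hmgcs1, Insig1, Fasn and Acss2, where 9.32% of genes were lower by that much. On day 3, Fdps and Lss were higher (8.88% of genes higher), and on day 5 Fdps, Hsd17b7, Scd1 and Stard4 (9.26%). In Per1KO, Fdps was higher by 2-fold on day 0 (8.18%), Fdps, Lss and Insig1 on day 3 (8.58%), and Fdps and Idi1 on day 5 (9.13%). No member was lower by 2-fold in Per1KO on days 0, 3 and 5 (8.65%, 9.26% and 11.5% of genes) or in Per2KO on days 3 and 5 (10% and 11.5%), and none was higher in Per2KO on day 0 (8.22%). At 1.5-fold, a size chosen after the day 0 levels were seen, 15 members were lower and 1 higher in Per2KO on day 0, where 19% and 15.8% of genes were. By that size 5 members were higher and 1 lower in Per2KO on day 3 (17.2% and 18.6% of genes), and 11 higher and 2 lower on day 5 (17% and 19.4%). In Per1KO the 1.5-fold counts were 2 higher and 3 lower on day 0 (15.9% and 18.1%), 3 and 1 on day 3 (16.2% and 17.7%), and 6 and 2 on day 5 (17% and 19.4%).

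Whether the change on leaving day 0 differed from that of WT was tested in a model where the step from day 0 to the later days could take its own size in each genotype, and the difference of steps is the interaction. No gene was called for Per1KO or for Per2KO (0% of tested genes in each) with edgeR's quasi-likelihood test, with 1426 and 1783 genes at an unadjusted p under 0.05, of which 2 and 8 were members. DESeq2 called 181 genes higher and 67 lower for Per1KO, with 0 members, and 281 higher and 195 lower for Per2KO, with Insig1 and Scd1 among them. Insig1 had an interaction of 1.14 (SE 0.37, adjusted p = 0.408) in Per1KO and 1.89 (SE 0.38, adjusted p = 0.154) in Per2KO. For Hmgcs1 the values were 0.80 (SE 0.65) and 1.82 (SE 0.66), for Fasn 0.44 (SE 0.43) and 1.39 (SE 0.43), for Srebf2 0.76 (SE 0.31) and 0.98 (SE 0.31), and for Scd1 0.90 (SE 0.36) and 1.07 (SE 0.36). Over the 30 members the median was 0.22 in Per1KO and 0.70 in Per2KO, against 0.00 and 0.02 over all tested genes. The model had 3 residual degrees of freedom and treated the later days of a genotype as repeats of the same state. Changes between those days, such as that of Acat2 in WT (log2 -1.36), therefore counted as spread. The standard errors of single members reached 0.89 (Acat2), so a difference of that size was not detectable for such a gene. For this reason the absence of calls does not show that the steps were equal.

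Between the knockout populations, the members' levels lay apart on day 0. Over the 3 days no gene was called between Per1KO and Per2KO (0% of tested genes; 88 genes at an unadjusted p under 0.05, Dhcr7 the only member among them; DESeq2 called 1 gene, not a member). On day 0, 29 of 30 members were higher in the Per1KO library than in the Per2KO library, all except Scap, with a median of 0.52 against 0.02 over all genes compared. On that day 11 members were higher by 1.5-fold, where 4.44% of genes were. The largest differences were those of Idi1 (1.36), Hmgcs1 (1.02), Stard4 (0.92), Fasn (0.92) and Dhcr7 (0.89). On days 3 and 5 no member reached 1.5-fold, where 0.74% and 1.3% of genes were higher by that much, and the medians were 0.06 and -0.04.

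**Figure D5:**
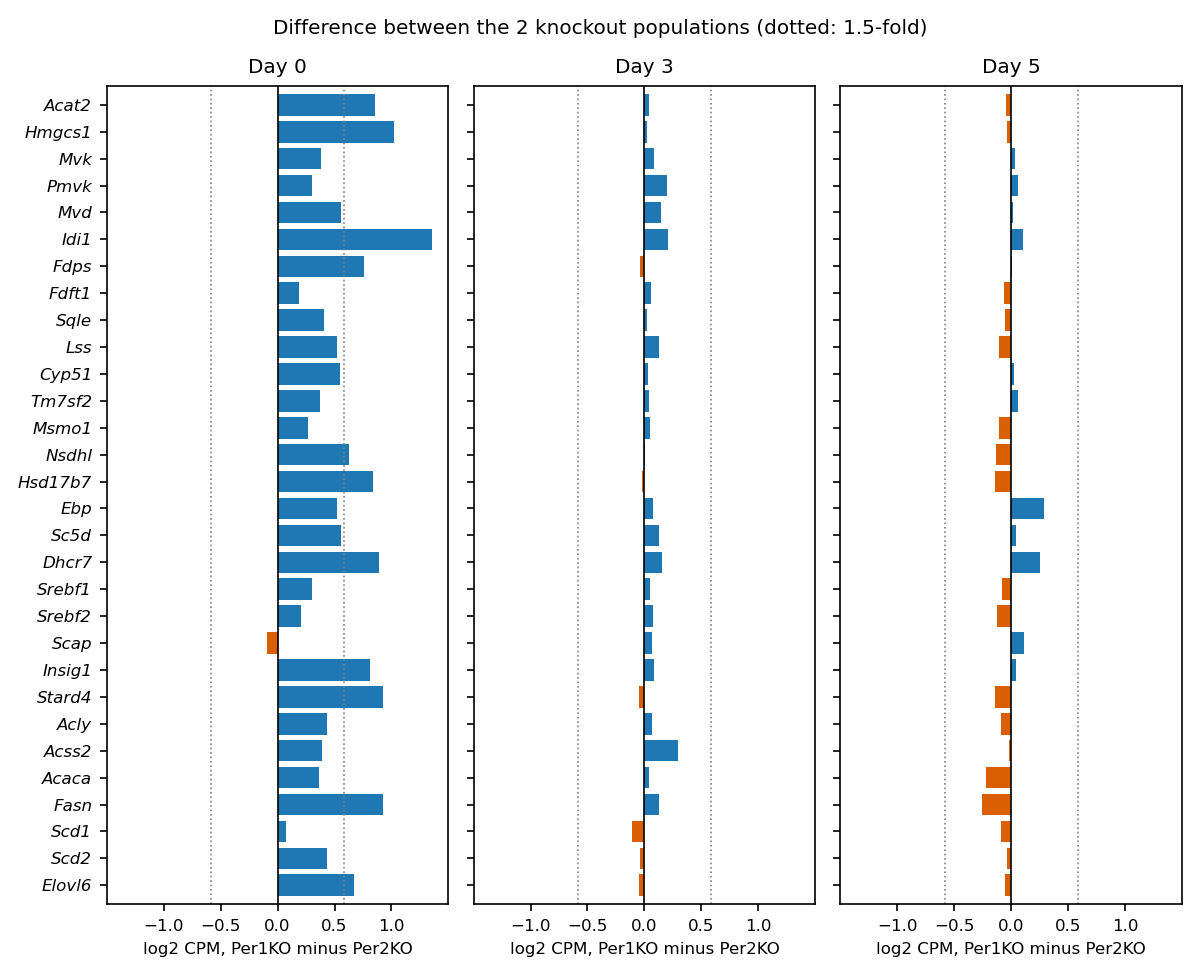
Difference in log2 CPM between the Per1KO and Per2KO libraries (x axis, blue where Per1KO is higher and orange where Per2KO is higher) for each of the 30 genes on days 0, 3 and 5, with dotted lines at 1.5-fold. On day 0 every bar but that of Scap points toward Per1KO, and on days 3 and 5 all bars lie between the dotted lines.

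On day 0 the Per2KO library was thus lower than WT in 27 and lower than Per1KO in 29 of the 30 members. Over all genes compared on day 0, 48.6% were higher in Per2KO than in WT and 52.2% were higher in Per1KO than in Per2KO. Both member counts rest on the same Per2KO day 0 library. The summed level of the 18 sterol enzymes was 947 CPM there, 1381 CPM in Per1KO and 1311 CPM in WT on day 0, and 2548, 2626 and 2091 CPM on day 3. Without this library, 14 members were called higher and 1 lower on day 3, with 13 of them sterol enzymes. Of the 13324 tested genes, 1536 were called higher and 1366 lower there. On day 5, 5 members were called higher and 5 lower, where 2435 and 2323 of the tested genes were. Acat2, Mvk, Sqle, Lss, Insig1, Acss2 and Scd1 were the members that lost the day 3 call. Idi1, Hmgcs1 and Nsdhl kept it, at 1.59, 0.99 and 1.08.

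Compared per kilobase of the longest annotated transcript, the desaturases were the most abundant members. On day 3 in WT, Scd2 stood at 607 and Scd1 at 400 CPM per kilobase, followed by Sqle, the squalene epoxidase, at 120.5 and Hmgcs1 at 117. In both knockouts on day 3, Hmgcs1 and Sqle were again next to each other (158 and 157 in Per1KO, 156 and 155 in Per2KO), and Scd1 was at 583 and 630. Acaca was the lowest member on that day in all 3 populations, at 3.99 in WT, 4.60 in Per1KO and 4.48 in Per2KO, with Acss2 next at 4.98, 6.55 and 5.33. The order between Hmgcs1 and Sqle rests on differences smaller than the SE of either gene's day effect.

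The other genes of sterol synthesis and uptake and of SREBP processing were called in both directions. Day 3 was the highest day in all 3 populations for 3 of the 9 synthesis and uptake genes, against 3.47% of tested genes. By population, it was the highest day for 3 of the 9 in WT, 8 in Per1KO and 6 in Per2KO. Of 9 synthesis and uptake genes outside the 30, 3 were called higher and 1 lower on day 3 (18.1% and 16.9% of all tested genes), and 1 higher and 1 lower on day 5 (23.2% and 22.9%). Scarb1, a lipoprotein receptor, was the gene that fell on day 5 (-0.93, SE 0.14, adjusted p = 0.00137). Vldlr, a lipoprotein receptor of muscle, was the single gene of this list called against WT, in Per1KO (-5.18, SE 1.05, adjusted p = 0.0133). Its level was 10.5, 31.6 and 106 CPM in WT, 1.06, 1.43 and 1.08 CPM in Per1KO and 11.6, 1.53 and 3.34 CPM in Per2KO (-3.16, SE 1.03, not called). Without the Per2KO day 0 library, Vldlr was called in Per2KO too. In that setting 1 gene of the list was called higher on day 3, where 1536 of the 13324 tested genes were. None was called on day 5 (2 at an unadjusted p under 0.05, edgeR), where 2435 tested genes were called higher and 2323 lower. Of 7 genes that process or degrade SREBP and its partners, 4 were called higher and 1 lower on day 5, against the same 23.2% and 22.9%, from Erlin2 (0.53, SE 0.15) to Erlin1 (-1.02, SE 0.20). Without the Per2KO day 0 library 1 gene of that list was called higher on day 5, where 2435 of the 13324 tested genes were.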

How the data were processed

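RNA was sequenced from 9 poly(A)-selected TruSeq libraries as single reads, per the labels' protocols. The values are deposited whole-number read counts per Ensembl gene; the genome build mm10, HISAT2 2.1.0 and CASAVA 1.8 are named in the submitters' processing notes, and the counting program, annotation and use of strand are not given in the sources used here, so overlapping and antisense genes cannot be told apart. The 9 value columns matched 9 samples. Genes were tested at 1 CPM or more in at least 3 libraries (13324 genes) with edgeR 4.0.16 (limma 3.58.1, R 4.3.3): TMM scaling, robust quasi-likelihood test, Benjamini-Hochberg adjustment over all tested genes. The additive model of genotype and day had 4 residual degrees of freedom, the interaction model 3. The procedure was tested on simulated data. Single library pairs were compared as log2 CPM with a prior count of 2, without a test. DESeq2 1.42.0, other scalings and filters, thinned knockout counts, summed copies and left-out libraries were tried. Shared 31-base words and positions come from GENCODE on GRCm38.

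The members, the 5 related gene lists and the 6 marker lists were chosen with earlier results of these data known. Named are all 30 members and, from each related list, the called genes of largest rise and fall in each knockout against WT and on day 5 against day 0; genes named beyond that (Abcg1, Mylip, Lpin1 and Dgat2) were chosen after their values were seen, and some genes that the rule admits are not reported here.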

Additional observations from a re-analysis of the deposited data

How the results depend on the processing

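Across single genes and settings, 2366 results kept their direction and side of the threshold, 102 lost a call and 62 gained one. Another 109 changed sign without being called under either setting, 31 of them without the Per2KO day 0 library and 26 without day 0, among them Fasn (-0.18 to 0.25) and Acat2 (-0.07 to 0.29) in Per2KO against WT without day 0. The 1 result that changed sign and was called was Hmgcs1 in Per2KO against WT, at -0.11 with all days and between -0.46 and 0.48 with 1 day left out. Leaving out a day moved the members called against WT from 3 to between 1 and 10 in either knockout. Over all genes, calls moved from 2575 to between 780 and 2814 in Per1KO and from 2652 to between 855 and 3138 in Per2KO. Leaving out a population moved the members called on day 3 against day 0 from 22 to between 8 and 23. All genes called there moved from 4664 to between 1147 and 7684. For day 5 against day 0, the members called moved from 13 to between 3 and 21. All genes called there moved from 6149 to between 2348 and 8586. With only the 6 libraries compared, 16 members were called on day 3 against day 0, of 3105 genes called in all. On day 5 against day 0 they were 7, of 5255 genes. For day 5 against day 3, 1 member was called, of 238 genes called in all. The members and all genes called were 8 and 728 with DESeq2's test, and 0 and 227 with DESeq2's size factors. They were 2 and 370 without a filter, and 0 and 206 with a filter of 10 CPM. In the 6 libraries compared they were 10 and 579. With a population left out, members ranged from 0 to 7 and all genes from 0 to 1393. Added after seeing the data, leaving out the Per2KO day 0 library gave 4 members for day 5 against day 3, of 202 genes in all. It gave 5 members in Per1KO against WT, of 2433 genes in all. The interaction in Per2KO called 2 members with DESeq2, of 476 genes in all, and 2 without a filter, of 567. The samples carry no replicate numbers to pair by; the additive model has day as a term and so compares populations within days. The interaction was not refitted with a day left out, which would leave no residual degrees of freedom. WT depth sets the widest counting intervals. With knockout counts thinned to WT depth, 18 members were called on day 3 against day 0, of 3649 genes in all. Against WT, 3 members were called in Per1KO, of 2112 genes, and 2 in Per2KO, of 2231. In Per2KO 1 of them was higher and 1 lower, in place of 1 and 2.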

Other observations

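Several genes of sterol efflux and triglyceride synthesis were called lower in both knockouts. Of 6 tested LXR receptors and targets with sterol efflux and storage genes, 3 were called lower in each knockout and none higher, where 10.1% of all tested genes were called lower in Per1KO and 10.6% in Per2KO. Abca1, which exports cholesterol from cells, stood at 4.10, 4.56 and 19.4 CPM on days 0, 3 and 5 in WT, at 0.507, 1.14 and 2.69 CPM in Per1KO and at 0.610, 1.24 and 2.68 CPM in Per2KO. All 6 knockout levels lay below the lowest WT level (-2.64, SE 0.26, adjusted p = 0.000483 in Per1KO and -2.53, SE 0.26, adjusted p = 0.000598 in Per2KO, edgeR's quasi-likelihood test). Abcg1, a second sterol exporter, differed from WT by -1.48 and -1.55 (SE 0.35 in both), and Mylip, a ubiquitin ligase of lipoprotein receptors, by -0.90 and -0.96 (SE 0.25 in both). These 3 genes were called higher on day 5 against day 0, Abca1 by 2.25 (SE 0.26), while Soat1, which esterifies cholesterol, was called lower (-0.63). Without the Per2KO day 0 library Mylip was no longer called against WT. Nr1h3, the inducible LXR, was under the filter on low counts in all 9 libraries, with at most 0.660 CPM.

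Of 14 tested genes of fatty acid and triglyceride synthesis outside the 30, 4 were called lower and none higher in each knockout, against the same 10.1% and 10.6% called lower and 9.26% and 9.31% called higher over all tested genes. Gpam, the acyltransferase that starts glycerolipid synthesis, stood at 35.9, 83.0 and 132 CPM in WT, at 29.0, 37.3 and 41.6 CPM in Per1KO and at 35.9, 36.9 and 41.2 CPM in Per2KO. The WT level was highest on day 5, and all knockout levels lay below the WT levels of days 3 and 5 (-1.10, SE 0.29 in Per1KO and -0.99, SE 0.29 in Per2KO). Lpin1 and Dgat2, later enzymes of triglyceride synthesis, were also called lower in both. Without the Per2KO day 0 library Dgat2 was no longer called in Per2KO. Acsl3, an acyl-CoA synthetase, had the largest rise of this list on day 5 (1.30, SE 0.14). Of 10 tested genes of fatty acid oxidation, 1 was called higher and 1 lower in Per1KO and 2 lower in Per2KO, counts near those shares. Pdk4, a kinase that holds back glucose oxidation, was higher in Per1KO (1.51, SE 0.37, adjusted p = 0.0295), and Ppard, a fatty acid receptor, was lower in both (-0.67 and -0.66, SE 0.11). Slc25a20, the carnitine carrier, rose on day 5 (0.96, SE 0.16).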
